A study of [Candida] boidinii with 12 samples.

Results

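Transcript levels of the wild-type (WT) strain CICC#33029 of the yeast Candida boidinii were compared between methanol and glucose. Cells were sampled at 6 h in YPM medium with 2% (w/v) methanol or in YPD medium with 2% (w/v) glucose, and the 3 methanol and 3 glucose libraries of WT were taken from the 12 libraries of the series by their labels. By their usual recipes both media also hold yeast extract and peptone, so the added carbon source is what differs between the media names. The other 6 libraries came from LA001-14 on the same media, a derivative of WT with a lactate dehydrogenase (LDH) cassette and a kanamycin resistance cassette inserted at random chromosomal sites. They entered the fit to help estimate the spread between replicates, and their values are given only beside WT genes described here.

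Candida boidinii is a methylotrophic yeast, able to use methanol as a source of carbon and energy. In such yeasts alcohol oxidase turns methanol into formaldehyde inside peroxisomes, dihydroxyacetone synthase feeds part of it into sugar phosphates, and formaldehyde and formate dehydrogenases oxidise the rest in the cytosol. The genes of this pathway are known as strongly repressed by glucose and strongly induced by methanol. The deposited files do not pair gene identifiers with names, so no gene below is assigned to that pathway or to any other, and each is given by its identifier or by its coding length. For the same reason near-identical gene copies, between which reads can be split, could not be set aside.

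Total counts were 8108911 to 12622896 reads in the methanol libraries and 9171196 to 11004278 reads in the glucose libraries. The introduced LDH gene, absent from WT by its label, had no read in 5 of the 6 WT libraries and 1 read in WT on methanol replicate 3. Across 5466 genes, log2 levels of replicates correlated with Pearson's r of 0.990 to 0.991 on methanol and 0.986 to 0.990 on glucose, and with 0.829 to 0.842 between the carbon sources. The median gene-wise SD was 0.11 on the log2 scale in the methanol libraries and 0.15 in the glucose libraries. Replicate 1 on glucose differed from replicates 2 and 3 by a chi-square per degree of freedom of 25.03 and 32.3, while those 2 differed from each other by 5.59. The labels call the replicates biological without saying that they were separate cultures, and a p-value here speaks only of the spread among these libraries.

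The largest gain of reads on methanol went to CB2421.t1, a coding sequence of 2121 bases that was almost silent on glucose. CB2421.t1 had 667021, 1101729 and 943240 reads in the 3 methanol libraries, against 11, 0 and 11 reads in the 3 glucose libraries. Scaled by library size and composition to counts per 1000000 reads (CPM), these are 94067, 99664 and 95120 CPM on methanol and 0.967, 0 and 1.17 CPM on glucose. All methanol libraries stood far above all glucose libraries, and the log2 fold change was 16.95 (edgeR adjusted p = 3.20e-23, with an SE of 0.63 from limma). Because the glucose level rests on so few reads, the size of this change is known only roughly. Ranked by the authors' FPKM, a level per kilobase of coding length, CB2421.t1 was number 1 of all rows on methanol and number 5491 on glucose.

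The second largest gain was that of CB3878.t1 (1128 bases), which already had a moderate level on glucose. It stood at 22896, 22458 and 21208 CPM on methanol, against 92.9, 95.1 and 180 CPM on glucose. The groups lay far apart, although glucose replicate 3 was about as far above the other glucose libraries as their own level. Its log2 fold change was 7.50 (SE 0.21, edgeR adjusted p = 3.06e-12). By FPKM it was number 3 on methanol and number 1071 on glucose.

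The largest loss of reads was that of CB0826.t1 (1002 bases), the most abundant transcript per kilobase on glucose. CB0826.t1 stood at 9693, 9359 and 9485 CPM on methanol, against 41962, 56032 and 59847 CPM on glucose. Its log2 fold change was -2.47 (SE 0.11, edgeR adjusted p = 9.49e-15), and it was still number 11 of all rows by FPKM on methanol. CB1783.t1 (1314 bases) lost the next largest amount, with 3930, 3929 and 3932 CPM on methanol and 19752, 24391 and 27080 CPM on glucose. The log2 change of CB1783.t1 was -2.59 with an SE of 0.096 (adjusted p = 2.32e-16), and its FPKM rank was 47 on methanol and 5 on glucose. In both genes the methanol libraries lay close together, and glucose replicate 1 was the lowest of the glucose libraries. The fall did not rest on that library, since without it the changes were -2.63 for CB0826.t1 and -2.73 for CB1783.t1.

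**Figure D1:**
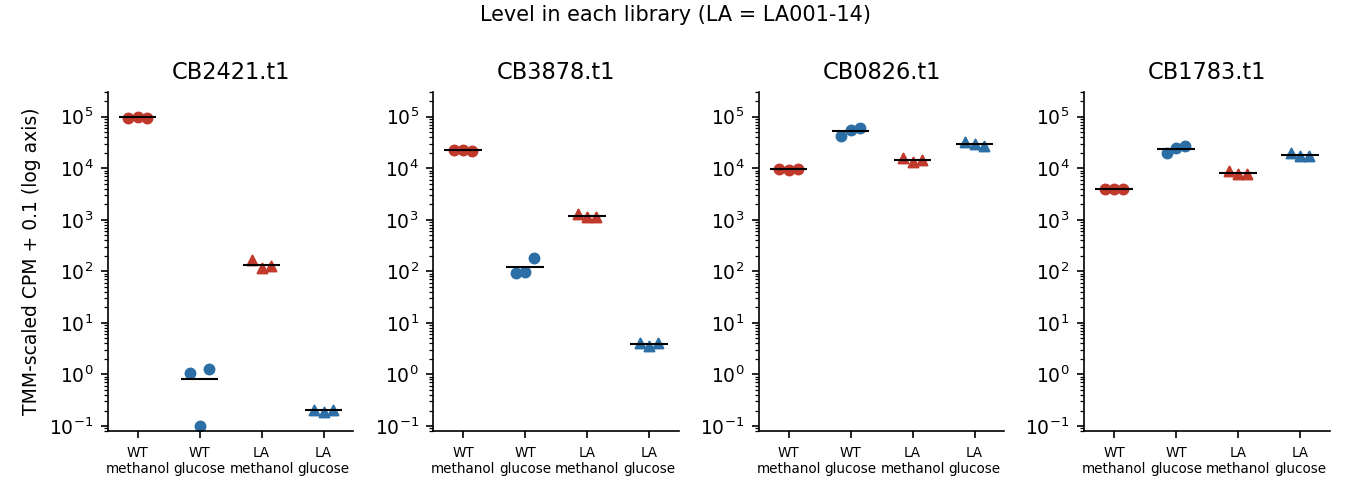
TMM-scaled CPM plus 0.1, on a log axis, of the 4 named genes in each library of WT (circles) and LA001-14 (triangles), on methanol (red) and glucose (blue), with group means as lines. The genes were picked among those whose WT methanol and glucose libraries do not overlap, and CB2421.t1 spans 96283 CPM on methanol to 0.713 CPM on glucose.

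Among the 10 largest gains by CPM difference, 6 genes had under 50 CPM on glucose and 9 changed by at least 8-fold. Among the 10 largest losses, which by the size of their loss had to start high on glucose, 8 were still above 1000 CPM on methanol, and 2 changed by at least 8-fold. Together the 10 largest gains held 19.2% of counts on methanol and 0.555% on glucose, and the 10 largest losses held 5.03% on methanol and 18.0% on glucose. The genes were picked by this same difference, so these counts and shares are a description.

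The third largest gain, in a coding sequence of 1992 bases, ended at 21133 ± 1149 CPM on methanol against 3.03 ± 0.528 CPM on glucose (SD, n = 3 each), a log2 change of 12.76. The fourth (1095 bases) stood at 18148 ± 584 CPM on methanol and 3.95 ± 0.113 CPM on glucose, and the sixth (504 bases) at 9290 ± 137 CPM and 3.94 ± 0.316 CPM. These 3 shared a near-silent state on glucose with CB2421.t1. Gains of the other kind started high: the ninth (1947 bases) had 12073 ± 746 CPM on methanol and 4337 ± 270 CPM on glucose, a log2 change of 1.48. On the losing side the third gene (1047 bases) had 4561 ± 271 CPM on methanol and 24228 ± 4557 CPM on glucose. The tenth (1482 bases) was nearly shut off, at 71.3 ± 10.3 CPM on methanol against 4582 ± 449 CPM on glucose, a log2 change of -6.01. The seventh (1383 bases) was abundant on both, at 27271 ± 733 CPM on methanol and 32484 ± 2941 CPM on glucose, a log2 change of -0.25.

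**Figure D2:**
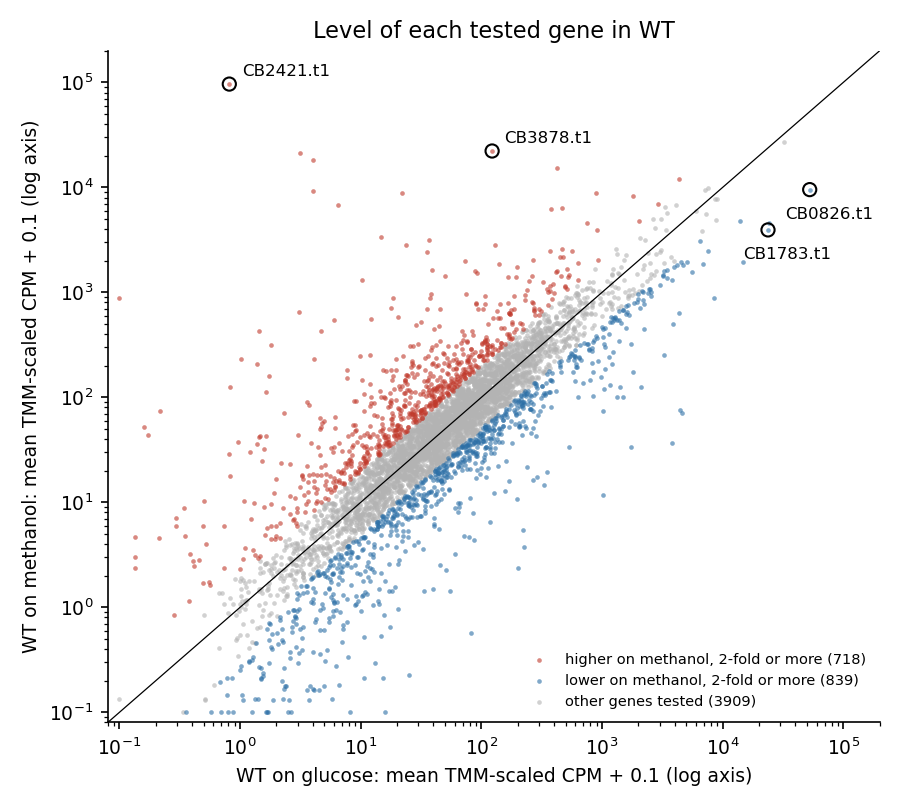
Mean TMM-scaled CPM plus 0.1 of each of 5466 tested genes in WT on methanol (vertical, log axis) against WT on glucose (horizontal, log axis), with genes called and at least 2-fold higher (718, red) or lower (839, blue) on methanol and the line of equal levels. The 4 named genes are circled, with CB2421.t1 at the upper left, far from the rest.

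With CB2421.t1 included, gains were the more concentrated. Summed over genes with a positive difference, 14 genes accounted for 50% of the gained CPM, CB2421.t1 alone for 20.6% and the first 10 for 45.6%. Among losses, 30 genes accounted for 50% of the lost CPM, CB0826.t1 for 11.5% and the first 10 for 35.0%. The first 100 genes held 74.1% of the gain and 70.9% of the loss. How far the contrast rests on CB2421.t1 alone was not tested. The sums of gained and lost CPM, 467551 and 376428, are not equal because CPM are scaled for composition.

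Most genes changed, but most changes were small. At an adjusted p under 0.05 in edgeR's quasi-likelihood test, 1913 genes (35%) rose on methanol and 1932 (35.3%) fell, and 70.3% changed in either direction. Of the higher genes, 668 changed by under 1.5-fold, 527 by 1.5- to 2-fold and 457 by 2- to 4-fold. Of the lower genes, 577, 516 and 571 fell in the same ranges. A change of at least 2-fold was fitted for 718 higher genes (13.1%) and 839 lower genes (15.3%), and of at least 16-fold for 70 (1.28%) and 71 (1.3%). Tested directly against a 2-fold change with edgeR's glmTreat, 530 genes (9.7%) lay beyond it on the higher side and 545 (9.97%) on the lower side. The 3 methanol libraries lay wholly above the 3 glucose libraries for 1971 genes (36.1%) and wholly below for 1999 (36.6%). Of these, 262 were not called.

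Many genes were also shown to change little. The 95% interval of the log2 change, from limma on log2 CPM, lay wholly inside a 1.5-fold change in either direction for 1617 genes, 29.6% of those tested. They include 516 genes that were called, each with a change that was detectable but small. Of the 1621 genes not called, 1101 had such a narrow interval, and for the other 520 the libraries left a larger change possible. Genes that were not called had a median level of 22.3 TMM-scaled CPM per kilobase on both carbon sources.

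Fitted falls of at least 2-fold were most frequent in the class of lowest level, where the fold is least precisely known. The tested genes were split into 5 equal classes by their mean CPM over the 6 WT libraries. In the lowest class, under 14.4 CPM, 304 of 1094 genes (27.8%) were called and at least 2-fold lower on methanol, against 115 (10.5%) at least 2-fold higher. In the highest class, above 159 CPM, the counts were 178 lower (16.3%) and 190 higher (17.4%). Of the 71 genes at least 16-fold lower, 47 were in the lowest class, while 35 of the 70 at least 16-fold higher were in the highest. With at least 10 CPM required in 3 libraries, 37 genes were at least 16-fold lower and 61 at least 16-fold higher. The glmTreat calls were not split by class. The mean over both carbon sources takes part in this split, since a gene induced to a very high level moves up by its own change. The share of genes called in either direction grew with level, at 55.7% in the lowest class and 84.3% in the highest, and the median SE of the log2 change shrank over the same classes, at 0.28 and 0.080. The part of precision in that trend was not tested.

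**Figure D3:**
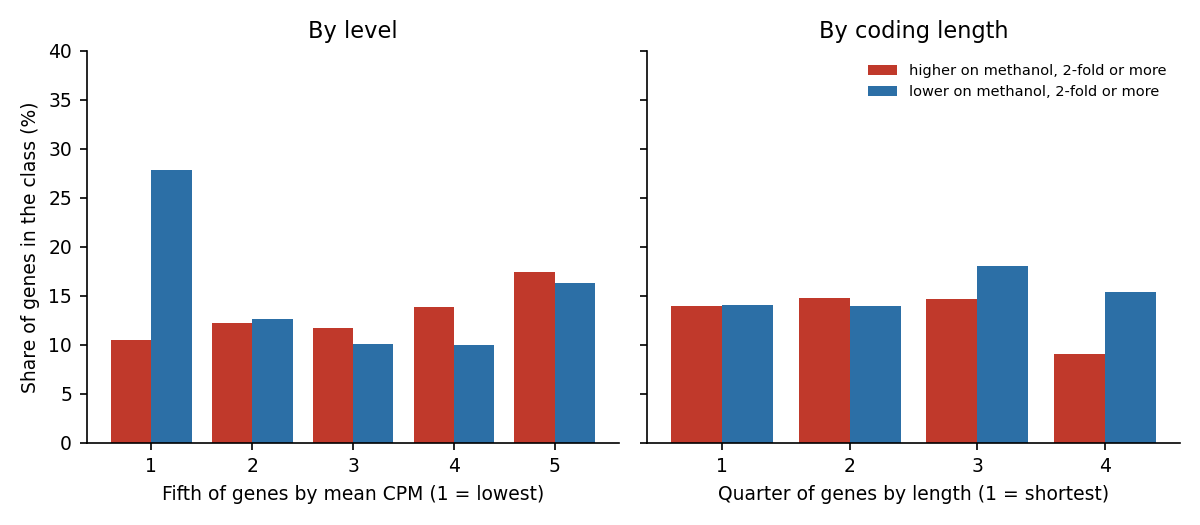
Share of tested genes, in %, that were called and at least 2-fold higher (red) or lower (blue) on methanol, in 5 classes of mean CPM over the 6 WT libraries (left) and 4 classes of coding length (right). The blue bar of the lowest level class, 27.8%, stands above all others.

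The genes 16-fold higher and those 16-fold lower began and ended at different levels. The 70 higher genes had a median of 166 TMM-scaled CPM per kilobase on methanol and 2.66 on glucose, against 32.9 and 31.0 over all tested genes. The 71 lower genes had a median of 0.101 on methanol and 5.82 on glucose. By their medians both sets were low-level genes on glucose. Both sets were picked by the ratio of these same levels, so the medians are a description. Coding length bore a weak relation to the change. Across 5466 genes the log2 change and coding length had Spearman's rho of -0.098, a correlation across genes given as a description. In the class of longest genes, 2271 bases or more, 124 genes (9.07%) were at least 2-fold higher and 210 (15.4%) at least 2-fold lower. In the class of shortest genes, up to 897 bases, the counts were 191 (14.0%) and 192 (14.0%).

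The set of most abundant transcripts was largely exchanged at the top and less so further down. Of the 10 rows with the highest mean FPKM on methanol, 2 were also among the 10 highest on glucose, whereas any 2 replicates of one carbon source shared 9 or 10. Among the first 100 rows, 60 were shared between the carbon sources, against 94 to 99 between replicates. The exchange was not symmetric. Of the 10 leading rows on methanol, 5 ranked beyond 1000 on glucose, and their median glucose rank over all 10 was 774. The 10 leading rows on glucose all stayed within the first 116 on methanol, at a median rank of 27.5.

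Whether methanol libraries were dominated by fewer transcripts depended on the measure. In raw counts the top row held 8.46% ± 0.252 on methanol and 5.00% ± 0.578 on glucose (SD, n = 3 each), and the top 10 rows held 21.2% ± 0.422 and 18.7% ± 1.53. The effective number of genes, 2 to the power of the Shannon entropy of the count shares, was 802 ± 14.5 on methanol and 907 ± 98.5 on glucose. Replicates did not overlap in these 3 measures, and the two-sided exact permutation test gave p = 0.1 for each, the smallest that 3 libraries against 3 allow. The differences for the top 10 rows and the effective number shrank without glucose replicate 1, from 2.51 to 1.66 percentage points and from -105 to -50.04. The top 100 rows held 46.6% ± 0.351 and 45.5% ± 2.05 (exact p = 0.6), a difference that was -0.033 percentage points without glucose replicate 1. After division by coding length the direction turned for the effective number, at 784 ± 12.5 on methanol and 648 ± 51.7 on glucose (exact p = 0.1). The per-length share of the top 100 rows was then 46.7% ± 0.321 on methanol and 53.3% ± 1.60 on glucose (exact p = 0.1). The most abundant row was CB2421.t1 in each methanol library and CB0826.t1 in each glucose library. With that row of each library left out, the effective number was 1084 ± 16.3 on methanol and 1052 ± 93.9 on glucose (exact p = 0.7). The direction in raw counts thus did not hold without these rows.

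**Figure D4:**
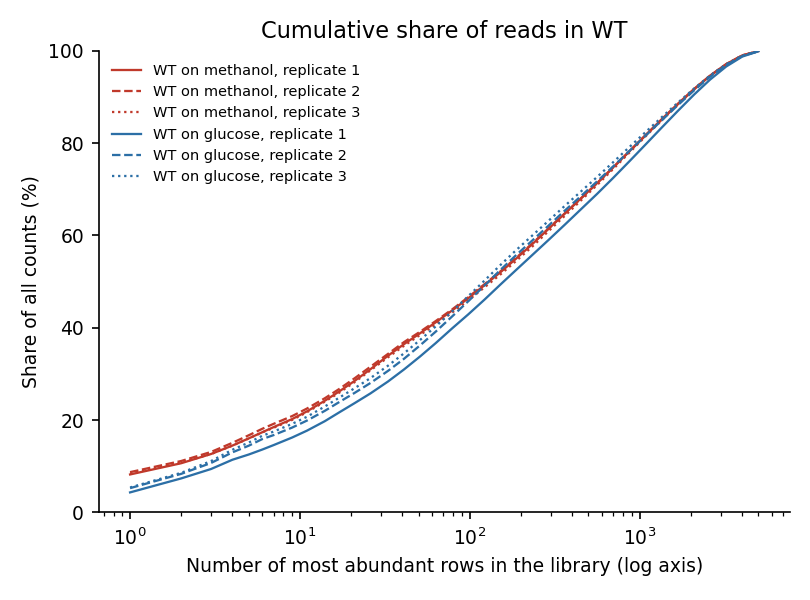
Share of all counts, in %, held by the most abundant rows of each WT library, against the number of rows on a log axis, for 3 methanol (red) and 3 glucose (blue) libraries. The methanol curves start higher, at 8.23% to 8.73% for the first row. At 235 rows the glucose curves, at 55.9% to 60.1%, lie on both sides of the methanol curves, at 57.7% to 58.4%.

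Transcripts seen in only one carbon source were nearly all on the glucose side. With no read in the 3 libraries of one group and at least 10 reads over the 3 of the other, 1 row was found on methanol only and 17 on glucose only. The summed depth was alike, at 31912739 reads on methanol and 30558988 on glucose. The methanol-only row had 6067 to 11595 reads per library on methanol, at least 8678-fold higher than the limit of 3 reads over the glucose libraries allows. In LA001-14 the same row had 21 reads over the methanol libraries and 38 over the glucose libraries, so it was methanol-only in WT alone. The 17 glucose-only rows had a median of 23 reads over the 3 glucose libraries and at most 462, so that the bound on their fold ran from 3.19 to 147. In LA001-14 on methanol 14 of the 17 had reads, 11 of them at least 10. The glucose-only count was 25, 37 and 30 without methanol replicate 1, 2 and 3 in turn. The methanol-only count was 5, 4 and 5 without glucose replicate 1, 2 and 3 in turn. Leaving out a library in which no read is allowed can only keep or raise these counts, so the direction of these shifts was set by the rule.

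Genes with adjacent identifier numbers changed somewhat alike. For 5271 pairs of tested genes whose numbers differ by 1, the log2 changes had Pearson's r of 0.146 and Spearman's rho of 0.125. At a difference of 2 Pearson's r was 0.029, and from 4 to 100 it lay between -0.013 and 0.019. When both genes of an adjacent pair changed at least 2-fold (484 pairs), the direction was the same in 63.2%, against 50.4% of 423 pairs at a difference of 100. The 70 genes at least 16-fold higher had 131 tested neighbours, of which 36 (27.5%) were at least 2-fold higher, against 13.1% of all tested genes. The 71 at least 16-fold lower had 136 tested neighbours, and 40 (29.4%) were at least 2-fold lower, against 15.3%. The row numbered just before CB2421.t1 (3018 bases) is the one with reads on methanol only in WT, at 877 ± 162 CPM. Whether identifier numbers follow the order of genes along chromosomes is not given in the sources used here, and the part of gene copies, overlapping reads or shared neighbourhood in these values was not tested. Pairs of neighbours share libraries and can share a gene, so the correlations are descriptions across genes and carry no test.

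**Figure D5:**
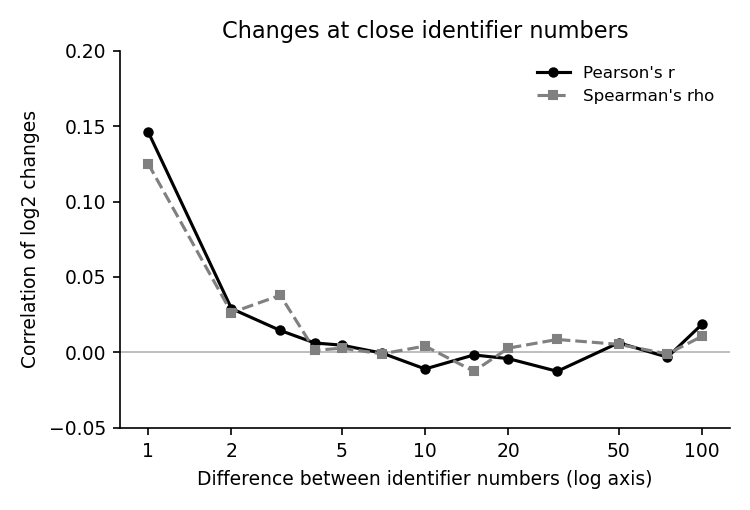
Correlation of the log2 change, methanol over glucose in WT, between pairs of tested genes, against the difference between their identifier numbers on a log axis, as Pearson's r (black) and Spearman's rho (grey). The values at a difference of 1, 0.146 and 0.125, stand above all larger differences, where none exceeds 0.038.

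The named genes were also set beside LA001-14, with the difference between the strains' responses tested in the same fit (58.7% of all tested genes were called in that test). They were picked for large changes on the WT libraries that this test also uses, which favours a larger response in WT. CB2421.t1 stood at 135 ± 24.8 CPM on methanol in LA001-14, and had 1 read in each of its 3 glucose libraries. Its log2 response was larger in WT by 6.71 in edgeR (adjusted p = 0.00667). The SE of 0.89 came from limma on log2 CPM and is not the error of the edgeR value. The size of 6.71 depends on a handful of glucose reads in both strains. CB3878.t1 stood at 1189 ± 73.2 CPM on methanol and 3.80 ± 0.235 CPM on glucose in LA001-14. Its responses differed by -0.79 (WT minus LA001-14, SE 0.29) with an adjusted p of 0.0777 in edgeR. Without WT on glucose replicate 3 the difference was -0.41. Without WT on glucose replicate 1, 2 or 3 in turn the adjusted p was 0.0380, 0.0140 or 0.0321, within a range of 0.0140 to 0.336 over all alternatives. The fall of CB0826.t1 was the steeper in WT, by -1.44 (SE 0.16, adjusted p = 8.65e-08), with 14531 ± 1549 CPM on methanol and 29583 ± 3207 CPM on glucose in LA001-14. That of CB1783.t1 was also steeper in WT, by -1.43 (SE 0.14, adjusted p = 8.55e-09), with 8019 ± 587 CPM and 17944 ± 1158 CPM in LA001-14.

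Among the 10 largest gains in WT, the difference was called for 8, each with the more positive response in WT. Among the 10 largest losses it was called for 9, each with the more negative response in WT. In LA001-14 the mean was lower on methanol than on glucose for 2 of these 8 genes, and higher on methanol than on glucose for 3 of these 9. Those directions within LA001-14 are given from the means alone. The same choice of genes on WT libraries applies here, so nothing is read from those counts. The third largest gain, 21133 ± 1149 CPM in WT on methanol, stood at 6.93 ± 0.880 CPM in LA001-14 on methanol and 8.47 ± 2.37 CPM on glucose. The eighth (1566 bases) stood at 8872 ± 227 CPM on methanol and 885 ± 156 CPM on glucose in WT, and at 7561 ± 574 CPM on methanol and 642 ± 26.1 CPM on glucose in LA001-14. The difference in log2 response was -0.23 and missed the threshold (edgeR adjusted p = 0.158).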

How the data were processed

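Each deposited file held 1 library, with coding length, raw read count and FPKM for 5712 rows, per the file headers. The raw counts were deposited without normalization. The FPKM values deposited by the authors were the counts divided by coding length and by the library's summed counts, with nothing to correct for composition. Per the submitters' processing notes, Bowtie2 2.5.4 was among the tools. How reads were counted, with which strand setting, and on which genome build is not given in the sources used here. RNA was extracted with Trizol and column-cleaned with DNase, per the labels' protocols.

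The counts were tested in edgeR 4.0.16 (R 4.3.3). filterByExpr kept 5466 rows and removed 246. TMM scaling and a robust quasi-likelihood model with 1 mean for each of 4 groups were fitted to all 12 libraries, without a replicate block, and p-values were adjusted by Benjamini-Hochberg over all genes tested. The contrasts were methanol minus glucose in WT, and that difference minus the same in LA001-14. Standard errors and 95% intervals came from limma 3.58.1 on log2 CPM with a prior count of 2, while the fold changes beside them came from edgeR. For genes with few reads in a group they do not measure the error of the edgeR value. They rest on the spread among replicate libraries, while the limit of 3 reads covers counting error only. Alternatives were other scalings, other filters, DESeq2 1.42.0, limma voom, the 6 WT libraries alone, a replicate block and leaving out each library.

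Named genes were the 2 called genes with the largest rise and the 2 with the largest fall in mean CPM whose replicates did not overlap, with LDH as label check. Others among the 10 largest in each direction are described by coding length. The comparison, the rule and the class splits were chosen with earlier results of these data known.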

Additional observations from a re-analysis of the deposited data

Results flagged for a closer look

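For 3 of the 4 named genes the responses to methanol of WT and LA001-14 differed when that difference was tested. The same test called 58.7% of all tested genes, so 3 called genes are little apart from that share. The remaining named gene, CB3878.t1, was not called (edgeR adjusted p = 0.0777). The WT response minus the LA001-14 response was 6.71 on the log2 scale for CB2421.t1 (edgeR adjusted p = 0.00667), -1.44 for CB0826.t1 (adjusted p = 8.65e-08) and -1.43 for CB1783.t1 (adjusted p = 8.55e-09). Over 20 alternatives the adjusted p ranged from 1.50e-12 to 0.0327 for CB2421.t1, and it was at most 1.15e-06 for CB0826.t1 and 1.77e-07 for CB1783.t1. The genes were picked for large changes on the WT libraries that this test also uses, which favours a larger response in WT. CB2421.t1 rests on 22 reads in WT and 3 in LA001-14 over the glucose libraries.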

How the results depend on the processing

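The direction and call of the WT change of each of the 4 named genes held in all 21 alternatives. The counts of called genes stayed within 1.5 times of the values given, with the exception of genes at least 16-fold lower, of which 37 were left when at least 10 CPM in 3 libraries was required, which removes low genes. Calls ranged from 3650 to 3907 when 1 library was left out. DESeq2 called 1885 genes higher and 1970 lower. The balance of directions moved with the scaling: 1601 higher and 2263 lower by the upper quartile, with the median of all genes at -0.14 on the log2 scale, and 1576 and 2197 by library totals, at -0.13, against -0.0099 with TMM.

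The replicate block gave 3834 calls against 3845. Deviations of same-numbered WT libraries from their group means correlated at -0.088, -0.091 and 0.053 over 4620 genes. Pairs with different numbers ranged from -0.110 to 0.155. Deviations from a mean of 3 libraries constrain one another, so these values do not settle whether the numbers pair the libraries.

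With 1 WT library left out, the share called was 49.4% to 52.1% in the lowest and 81.5% to 83.7% in the highest level class, and 62.1% to 64.7% in the shortest and 65.8% to 68.1% in the longest length class. Finer classes gave 87.8% (highest level) and 61.9% (shortest). The difference in shares of the top 1, 10 and 100 rows turned to -0.42, -0.088 and -6.56 percentage points after division by coding length and to -0.65, -0.38 and -0.99 without the top row, and that in the effective number to 136 and 32.3. For the top 100 it was -0.033 to 1.95 with 1 library left out. Rows on methanol only numbered 4 at 3 reads or more and 1 to 5 with 1 library left out. Rows on glucose only numbered 40 at 3 reads, 8 at 30 reads and 12 to 37 with 1 library left out. For rows with reads on 1 carbon source only, the direction of each shift was set by the rule. The cause of the other shifts was not tested.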

Other observations

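Levels were also sorted into bins of 10-fold width, on TMM-scaled CPM per kilobase. The lowest bin, under 1, and the highest, 1000 or more, were open-ended. Of 5466 genes, 4198 (76.8%) stayed in the same bin on methanol as on glucose, 588 were 1 bin higher and 620 were 1 bin lower on methanol. Moves of at least 2 bins numbered 41 up and 19 down, and moves of at least 3 bins numbered 11 up and 1 down. A gene at 1 to 10 on glucose cannot move 2 bins down however far it falls. The 71 genes at least 16-fold lower had a median of 5.82 on glucose, inside that bin. These counts therefore do not compare the 2 directions. The bin of 1000 or more held 134 genes on both carbon sources, and 52 more on methanol alone against 47 more on glucose alone. In the authors' FPKM, which carry no correction for composition, 486 genes were 1 bin higher and 734 were 1 bin lower.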
